A study of Mus musculus with 5 samples.

Results

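The IL-1 family was followed in whole colon after injection of an agonist of the IL-11 receptor. The 10 genes were Il33, Il1a, Il1b, Il1rn and Il18 among the ligands and antagonists, and Il1rl1, Il1r1, Il1r2, Il1rap and Il18r1 among the receptor chains. They were chosen by name as a family, with the difference between NT-3N and Control already known for these arrays, and Il33 was put first because of it. Their differences are therefore given as values with no test. They had 19 probes among the 56605 probes with a value, and 9 of the 10 genes were among the 32917 features that could be compared.

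Each of the 5 single-colour arrays held Cy3-labelled RNA from the colon of 1 wild-type mouse of the strain labelled C57BL/B6. The NT-3N group (n = 3) received NT-3N, a modified human IL-11 that activates the IL-11 receptor, by the intravenous route, was 8 weeks of age, and gave its colon after 3 hr. The Control group (n = 2) was untreated, and its age is not given in the sources used here. The labels and the study's methods differ in the unit of the dose, so no dose is given. No vehicle injection is described for the Control mice, so injection and agonist cannot be told apart. Values are the log2 of the spot signal after quantile normalization, so that a difference of 1 is a doubling. The array number limits the precision of every value.

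IL-1 family cytokines act through pairs of receptor chains that share an intracellular domain with Toll-like receptors and recruit the adaptor MyD88, which leads to NF-κB. IL-33, the product of Il33, is kept in the nucleus of stromal, endothelial and epithelial cells and is released when cells are damaged. It binds ST2, the product of Il1rl1, together with the shared chain encoded by Il1rap, and in the gut it is known for acting on mast cells, group 2 innate lymphoid cells and regulatory T cells. The family is held in check by an antagonist, a decoy receptor and soluble receptor forms.

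The sequences just upstream of Il33 and Il1r2 are shown because these genes had the largest differences among the ligands and among the receptor chains. They are the 250 bases before each start site in RefSeq (GRCm38.p6, + strand, 5′ to 3′), and Il33 has 2 start sites there. The windows lie at chr19:29924863-29925112 and chr19:29945540-29945789 for Il33 and at chr1:40085843-40086092 for Il1r2. Capitals mark a match to a searched motif.
Il33, first start site: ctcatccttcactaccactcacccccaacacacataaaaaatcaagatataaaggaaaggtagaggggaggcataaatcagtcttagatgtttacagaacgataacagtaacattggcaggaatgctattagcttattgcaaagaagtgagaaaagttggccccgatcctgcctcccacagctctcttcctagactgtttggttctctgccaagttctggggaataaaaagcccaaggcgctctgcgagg
Il33, second start site: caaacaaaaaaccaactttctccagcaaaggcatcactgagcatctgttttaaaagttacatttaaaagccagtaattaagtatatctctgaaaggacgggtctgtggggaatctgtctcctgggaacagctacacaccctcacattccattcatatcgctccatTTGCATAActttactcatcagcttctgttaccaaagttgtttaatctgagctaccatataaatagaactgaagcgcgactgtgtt
Il1r2: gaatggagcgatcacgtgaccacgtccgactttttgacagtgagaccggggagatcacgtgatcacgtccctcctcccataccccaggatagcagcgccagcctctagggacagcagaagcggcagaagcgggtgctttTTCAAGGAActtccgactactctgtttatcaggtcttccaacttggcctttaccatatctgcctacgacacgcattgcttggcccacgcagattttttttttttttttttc

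4 motifs were searched on both strands, namely TTCNNNGAA (bound by STAT factors), TTGCNNAA (C/EBP), TGANTCA (AP-1) and the NF-κB motif. The 10 genes had 17 such windows. The first Il33 window held none of the motifs, and the second held the C/EBP match TTGCATAA 85 bases before the start. The C/EBP letters occurred in 9.56% of all 32851 windows of this length. The Il1r2 window held the STAT match TTCAAGGAA 111 bases before the start, and the STAT letters occurred in 7.02% of all windows. Of the other genes, Il18r1 held the STAT letters, Il1r1 and Il1rl1 the C/EBP letters, and Il1rn and Il1a the AP-1 letters, which occurred in 6.75% of all windows. The NF-κB motif was found in 1 of the 17 windows, at Il1r1, against 3.9% of all windows. These matches describe letters and not binding.

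Il33 was the member with the largest difference. Its brighter probe, A_55_P1964960, gave log2 signals of 7.30 and 7.25 in Control and of 9.65, 9.97 and 10.05 in NT-3N. All 3 NT-3N mice lay far above both Control mice, and the groups did not overlap. The means were 7.28 ± 0.03 (SD, n = 2) and 9.89 ± 0.21 (SD, n = 3), a log2 difference of 2.61 (standard error 0.15) or 6.12-fold. A further Il33 probe, A_55_P2614900, was dimmer, with 3.99 and 4.42 in Control and 6.47, 6.65 and 6.59 in NT-3N. Its log2 difference was 2.37 (standard error 0.21), so both probes placed the groups apart by a similar amount. In bulk tissue, more cells that express Il33 and more Il33 RNA per cell cannot be told apart.

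**Figure D1:**
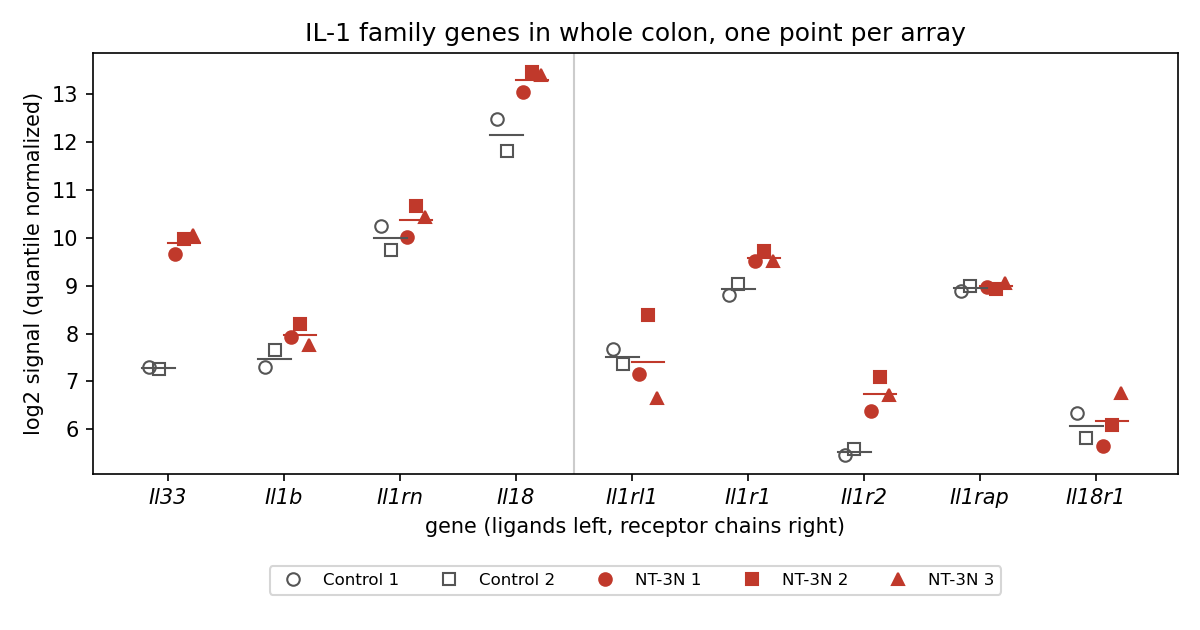
Log2 signal (quantile normalized) of the brightest probe of each of the 9 measured IL-1 family genes, with 1 point per array, open grey for Control and red for NT-3N, and a short line at each group mean. Levels can be compared between arrays for 1 gene, not between genes. The 3 NT-3N points of Il33 lie between 9.65 and 10.05 against 7.25 and 7.30 in Control, and the points of Il1rap, Il1rl1, Il18r1 and Il1rn overlap.

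Among the other ligands, Il18 differed most. IL-18 is made by the gut epithelium and by macrophages as a precursor that caspase-1 cleaves. Its 1 probe gave 12.48 and 11.82 in Control and 13.05, 13.46 and 13.41 in NT-3N. The groups did not overlap, though the Control mice lay apart from each other, with means of 12.15 ± 0.47 (SD, n = 2) and 13.30 ± 0.23 (SD, n = 3). The log2 difference was 1.15 (standard error 0.22), and it was 0.82 without Control 2 and 1.49 without Control 1. The mean log2 signal of 8 epithelial markers was 15.99 and 16.02 in Control and lay between 15.87 and 16 in NT-3N. Of the 8, 2 lay above 0 and 6 below, with Cdx2 the lowest at -0.46 and without overlap. The Control mice also lay apart in B cell markers, of which all 7 were measured and 6 lay above 0, with means of 8.21 and 6.71 in Control and between 8.49 and 8.79 in NT-3N. They did so too in 6 adipocyte markers, 2 above 0 and 4 below, with means of 10.25 and 7.98 in Control and between 7.14 and 9.89 in NT-3N. By the means of both lists Control 2 was the lower Control mouse, as for Il18. The B cell marker Ms4a1 went the other way, at 4.95 in Control 1 and 6.53 in Control 2. The adipocyte mean was lowest in NT-3N 3, at 7.14. The mean of the measured mast cell markers was also lower in Control 2, at 6.40 against 7.72 in Control 1. The part of these cells in the Il18 values was not tested.

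Il1b, the inflammatory ligand of the IL-1 receptor, gave 7.30 and 7.65 in Control and 7.94, 8.20 and 7.76 in NT-3N on its brighter probe. The gap between the highest Control and the lowest NT-3N mouse was small. The log2 difference was 0.49 (standard error 0.18), and between 0.32 and 0.67 when 1 Control array was left out. On its dimmer probe the log2 difference was 0.62 (standard error 0.44), and the groups overlapped. Il1a, which encodes the other ligand of that receptor, was not well above background on any of the 5 arrays, so no difference can be given for it.

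Il1rn encodes the antagonist that occupies the IL-1 receptor without signalling. Its brighter probe gave 10.24 and 9.74 in Control and 10.01, 10.67 and 10.43 in NT-3N. NT-3N 1 lay between the Control mice, so the groups overlapped. The log2 difference was 0.38 (standard error 0.23), and it was 0.13 without Control 2 and 0.62 without Control 1. Its dimmer probe also overlapped, with a log2 difference of 0.44 (standard error 0.32).

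The 4 measured ligands and antagonists all had a log2 difference above 0, with a median of 0.82, and 3 of them did not overlap, with NT-3N higher. Over all features 46.4% lay above 0, 13.5% did not overlap with NT-3N higher, and the median was -0.02. Since the genes were chosen with these values known, nothing is read from the counts.

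The receptor chains ranged from -0.10 to 1.21, with a median of 0.09. Il1r2, the decoy receptor that binds IL-1 and does not signal, had the largest difference of the 5. Its brighter probe gave 5.47 and 5.58 in Control and 6.37, 7.10 and 6.72 in NT-3N, and the groups did not overlap. The means were 5.53 ± 0.08 (SD, n = 2) and 6.73 ± 0.36 (SD, n = 3), a log2 difference of 1.21 (standard error 0.24) or 2.31-fold. With normexp background correction, which compresses dim signals, the log2 difference was 0.64. A further Il1r2 probe was not well above background on any array.

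Il1r1, the signalling receptor for both forms of IL-1, gave 8.82 and 9.04 in Control and 9.51, 9.72 and 9.52 in NT-3N. The groups did not overlap, and the spread within each was narrow. The log2 difference was 0.66 (standard error 0.13) or 1.58-fold. Il1r2 and Il1r1 are the first genes of a row on chromosome 1 that goes on with Il1rl2, Il1rl1, Il18r1 and Il18rap, and the measured genes further along this row overlapped between the groups.

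Il1rap, which encodes the chain shared by the receptors of IL-1 and IL-33, showed little difference. The probe named for its membrane transcript gave 8.89 and 9.0 in Control and 8.97, 8.94 and 9.05 in NT-3N. Its log2 difference was 0.04 (standard error 0.11), and that of the probe named for the soluble transcript was 0.08 (standard error 0.16). On both probes the NT-3N mice overlapped the Control mice. Whether either probe reads 1 transcript alone is not known.

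Il18r1, which encodes the chain that binds IL-18, gave 6.34 and 5.82 in Control and 5.65, 6.09 and 6.76 in NT-3N. The 3 NT-3N mice spanned both Control mice. The log2 difference was 0.09 (standard error 0.35), and its sign turned when Control 2 (-0.18) or NT-3N 3 (-0.21) was left out. The other chain of that receptor, encoded by Il18rap, was below the background limit.

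Il1rl1, which encodes the receptor of IL-33, varied more between the NT-3N mice than between the groups. The probe A_51_P339793, named for the short transcript that encodes secreted ST2, gave 7.67 and 7.36 in Control and 7.17, 8.40 and 6.66 in NT-3N. NT-3N 2 was the highest of all 5 mice and NT-3N 3 the lowest. The log2 difference was -0.10 (standard error 0.48), and it was -0.60 without NT-3N 2 and 0.27 without NT-3N 3. The probe A_55_P2027737, named for the long transcript that encodes membrane ST2, gave 6.85 and 7.04 in Control and 6.99, 7.84 and 6.89 in NT-3N, a log2 difference of 0.29 (standard error 0.30). The sequences of the probes are not used here, so whether each reads 1 transcript alone is not known. The probes thus differed in sign, and on both NT-3N 2 was the highest, by 0.88 and 0.90 above the Control mean.

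**Figure D2:**
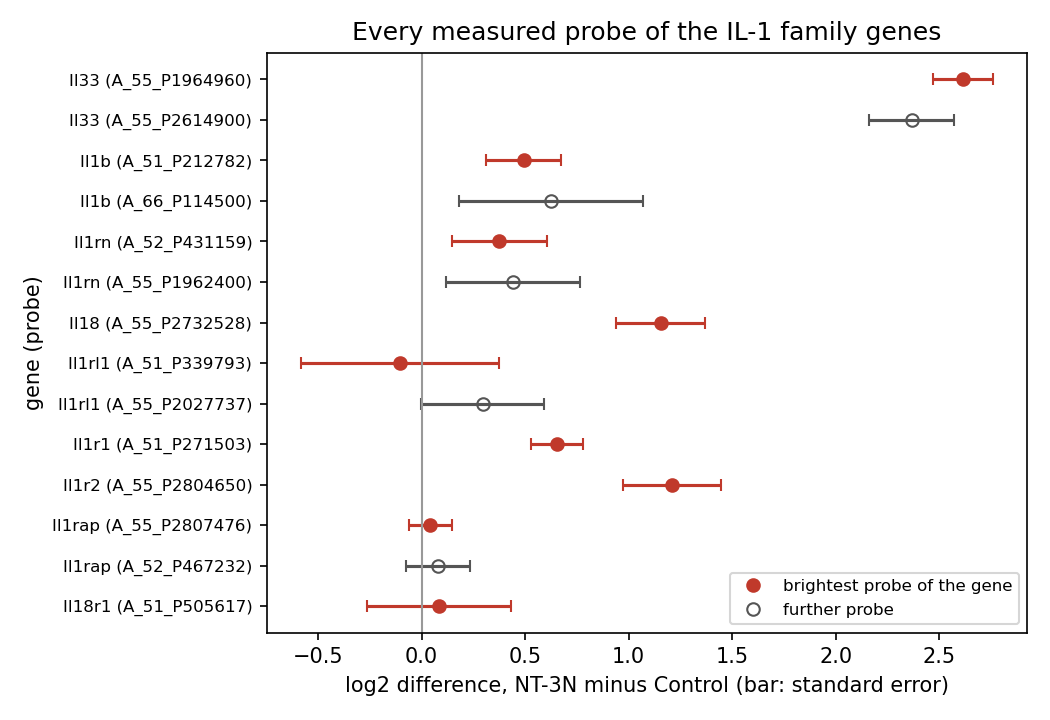
Log2 difference between NT-3N and Control (horizontal axis) for each of the 14 measured probes of the IL-1 family genes, filled red for the brightest probe of a gene and open grey for a further probe. Bars are the standard error of the fit. The probes of Il33 lie at 2.61 and 2.37, and those of Il1rl1 lie on either side of 0 at -0.10 and 0.29.

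In all, 8 of the 9 measured genes had a log2 difference above 0 and 1 lay below. For 5 genes, Il33, Il18, Il1b, Il1r1 and Il1r2, the groups did not overlap, and NT-3N was the higher. Over all features 28.4% did not overlap, 13.5% with NT-3N higher and 14.8% with NT-3N lower. These counts hold the contrast by which the genes were chosen and are given as a description. Of the 19 probes, 14 were measured, and 4 of the 5 genes with several measured probes had the same sign on them, Il1rl1 being the exception.

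Mast cells carry ST2, and their markers were also highest, on average, in NT-3N 2. The mean log2 signal of 7 of the 8 listed markers was 7.72 and 6.40 in Control and 6.52, 8.61 and 6.72 in NT-3N, so that NT-3N 2 stood above the other mice. 5 of the 7 (Cpa3, Fcer1a, Mcpt1, Mcpt2 and Cma1) were highest in NT-3N 2, and Ms4a2 was below the background limit. Mcpt2 was well above background on only 1 Control and 1 NT-3N array, and Cpa3 on 1 Control and 2 NT-3N arrays. The means of the list therefore rest partly on signals near background. Kit and Tpsb2 were highest in Control 2. Mcpt1, Mcpt2 and Cpa3, which encode mast cell proteases, had the widest ranges, Mcpt1 reaching 10.55 in NT-3N 2 against 5.23 to 8.87 in the other mice. NT-3N 2 also held the highest value of 6 of 9 fibroblast, 6 of 8 endothelial and 6 of 8 macrophage markers. The share of all features that were highest in NT-3N 2 was not counted, so nothing is read from these counts or from that of the mast cell markers. The part of these cells in the Il1rl1 values was not tested.

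**Figure D3:**
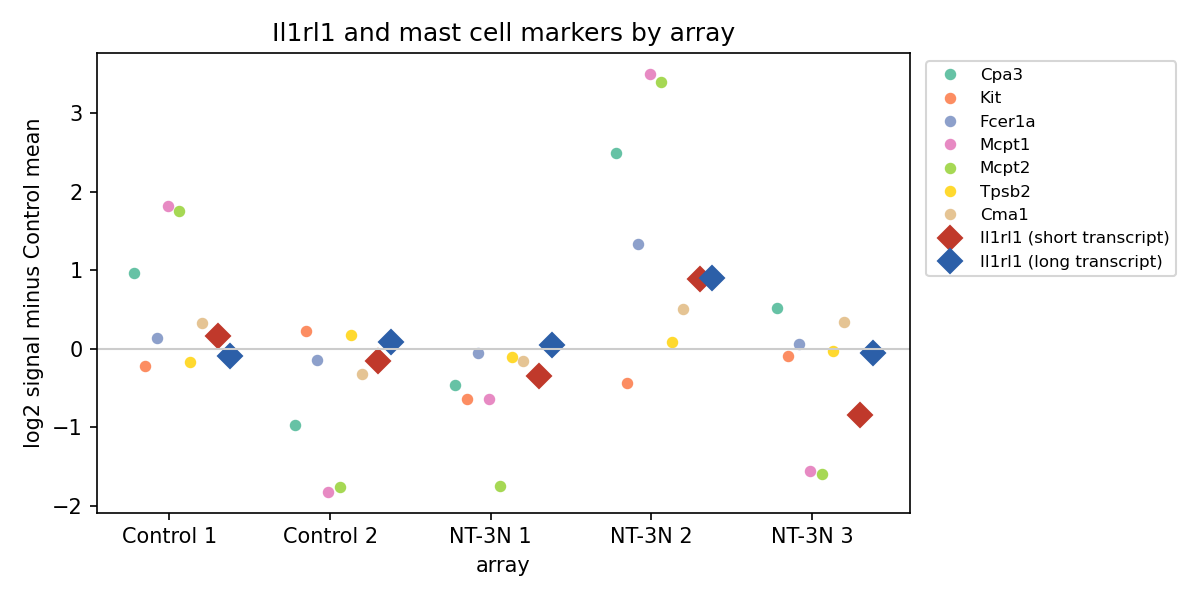
Log2 signal minus the Control mean on each array for both measured Il1rl1 probes (diamonds) and the 7 measured mast cell markers (dots). On NT-3N 2 both diamonds lie near 0.9, and Mcpt1, Mcpt2 and Cpa3 have their highest values there.

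Markers of cells that can make IL-33 are given beside it. The mean log2 signal of 9 fibroblast markers was 12.25 and 12.28 in Control and lay between 12.18 and 12.70 in NT-3N. Of the 9, 6 had a log2 difference above 0 and 3 below. In limma 2 of the 9, Pdpn and Dcn, passed an unadjusted p of 0.05 upward, against 4.95% of all features. None of the 9 passed after adjustment. Podoplanin, the product of Pdpn, had a log2 difference of 1.49 (standard error 0.18, limma adjusted p = 0.067). The 8 endothelial markers had means of 8.37 in both Control mice and between 8.28 and 8.62 in NT-3N. 4 of the 6 mesothelial markers were measured, 2 above 0 and 2 below, with means of 8.23 and 8.83 in Control. In NT-3N 1, 2 and 3 their means were 8.49, 8.82 and 9.94. The 5 markers of enteric glia had means of 7.66 in both Control mice and between 7.88 and 8.07 in NT-3N, with 2 above 0 and 3 below. Of these 5, Gfap rose by 1.84 (standard error 0.13, limma adjusted p = 0.012), where 0.125% of all features passed the adjusted p upward. No feature was called, Gfap included, without NT-3N 3 or with the replicate number as a block. Smooth muscle markers went the other way, with all 7 below 0 and means of 14.52 and 14.55 in Control against 13.93 to 14.31 in NT-3N. The part of these cell types in the Il33 values was not tested.

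Markers of neutrophils, which carry Il1r2 and Il1b, had a higher mean signal in each NT-3N mouse than in either Control mouse, a gap that lay mostly in S100a8 and S100a9. 4 of the 8 listed were kept, all with a log2 difference above 0, with means of 3.47 and 3.81 in Control and between 5.37 and 6.60 in NT-3N. S100a8 and S100a9 were well above background on all 3 NT-3N arrays and on neither Control array, so both passed the background filter through NT-3N alone. Their limma adjusted p of 0.22 and 0.062, and the Control means of the list, therefore rest partly on signals near background. These p-values support nothing. With the main processing their approximate bounds were 3.61-fold and 13.9-fold, NT-3N being higher, and these are no firm lower limits. The other kept markers differed less, Mmp8 by 0.50 with overlapping groups and Camp by 0.19 without overlap. Cxcr2, Retnlg and Ngp were below the background limit, and no probe was matched to Ly6g. The mean of the neutrophil markers was highest in NT-3N 1, whereas Il1r2 was highest in NT-3N 2. Macrophage markers had means of 10.34 and 10.40 in Control and between 10.18 and 10.68 in NT-3N. The part of these cells in the Il1r2 and Il1b values was not tested.

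Other genes of the pathway were tested on all features at once. Of the 57 listed genes, 43 were measured, 27 with a log2 difference above 0 and 16 below. None passed the limma adjusted p of 0.05. With the local-pooled-error test 2 passed, Il6 being 1 of them, where 192 of all 32917 features were called higher and 156 lower. In limma 0.143% of all features passed, 0.125% upward and 0.0182% downward. At an unadjusted p of 0.05, 7 were higher and 0 lower, against 4.95% and 4.67% of all features. With a change of at least 2-fold besides, 3 were higher and 0 lower, against 0.793% and 0.51% of all features. The median log2 difference over the 43 genes was 0.04, against -0.02 over all features, and 11 did not overlap with NT-3N higher and 4 with NT-3N lower, against 13.5% and 14.8% of all features. The counts of higher genes include Il6, which passed the background filter through NT-3N alone, with no Control array well above background. The lists were chosen with earlier results of these data known, so the counts are a description and nothing is read from them.

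The signalling chain below the receptors was measured in full, and 8 of its 14 adaptors and kinases lay above 0. Myd88, the adaptor itself, gave 11.60 and 11.64 in Control and 11.90, 11.98 and 12.00 in NT-3N. The groups did not overlap, and the spread was narrow, but the log2 difference of 0.34 (standard error 0.08) had an adjusted p of 0.28 in limma. Tab3, which links the kinase TAK1 to ubiquitin chains, had a log2 difference of 0.18 (limma adjusted p = 0.63). Of the receptor chains that are not members, Sigirr, an inhibitory receptor of the family, was the 1 measured of 5, at -0.13 (limma adjusted p = 0.67).

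All 12 genes of cytokine processing and release were measured, and 7 lay above 0. Casp4, the inflammatory caspase that senses cytosolic lipopolysaccharide, gave 12.55 and 12.53 in Control and 13.10, 12.85 and 13.00 in NT-3N. Its groups did not overlap, with a log2 difference of 0.45 (standard error 0.10, limma adjusted p = 0.24). Nlrp1b, an inflammasome sensor, stood at 0.25 (limma adjusted p = 0.54). Casp8, an initiator caspase of cell death, stood at -0.05 (limma adjusted p = 0.86).

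Among NF-κB targets of IL-1 receptors, 9 of 11 were measured and 7 lay above 0, with a median of 0.30. Icam1, an adhesion molecule for leukocytes, gave 5.14 in both Control mice and 5.96, 6.35 and 6.34 in NT-3N. Its log2 difference was 1.08 (standard error 0.20, limma adjusted p = 0.18), and it was 0.45 with normexp background correction. Ccl2, a chemokine for monocytes, stood at 0.70 (limma adjusted p = 0.51), and Ptgs2, the inducible cyclooxygenase, at -0.52 (limma adjusted p = 0.53).

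Il6, Cxcl1 and Tnfaip3 fell outside the naming rule and were chosen after their values were seen, being the remaining genes of this list with an unadjusted p under 0.05. Il6 was well above background on 0 of 2 Control and 2 of 3 NT-3N arrays (limma adjusted p = 0.13). With the main processing its approximate bound was 2.72-fold, with all 3 NT-3N arrays in the mean, and it is no firm lower limit. With normexp background correction its log2 difference was 0.52, which is less than that bound. Cxcl1, a chemokine for neutrophils, was well above background on 1 of 2 Control and all 3 NT-3N arrays, with 2.37 and 3.91 in Control and 7.0, 6.31 and 5.90 in NT-3N (limma adjusted p = 0.13). Il6 passed the adjusted threshold with array quality weights, with the local-pooled-error test and without NT-3N 1. Cxcl1 did so with the local-pooled-error test and without Control 2. Il6 passed the background filter through NT-3N alone, so its p-values rest on Control signals near background and support nothing. Tnfaip3, an inhibitor of NF-κB signalling, stood at 0.30 (limma adjusted p = 0.51). Cxcl2 and Csf3 were below the background limit.

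**Figure D4:**
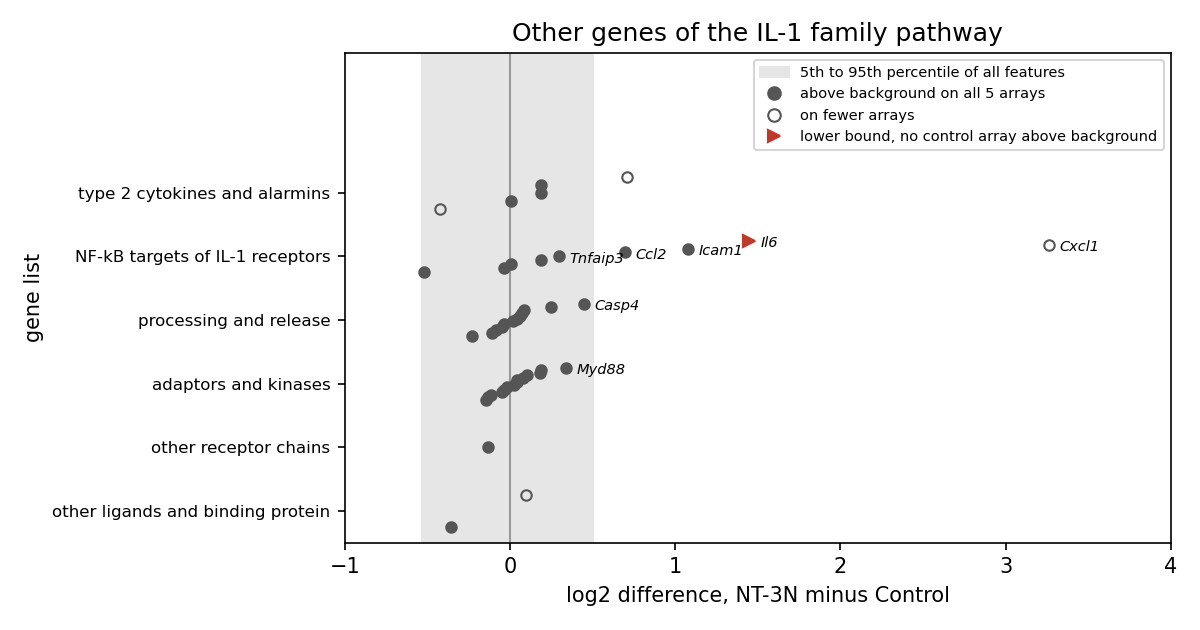
Log2 difference between NT-3N and Control (horizontal axis) for the measured genes of 6 pathway lists, with the grey band marking the 5th to 95th percentile of all features (-0.53 to 0.50). Filled dots were above background on all 5 arrays, open dots on fewer, and the triangle is the approximate bound of Il6 with the main processing. Named genes had an unadjusted p under 0.05, and none passed the adjusted p.

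Of the type 2 cytokines and alarmins that lie around IL-33, 5 of 9 were measured and 4 lay above 0, with none at an unadjusted p of 0.05. Il5, Il9, Il13 and Csf2, the cytokines that IL-33 is known to elicit from lymphoid and mast cells, were below the background limit. No gene of this list met the naming rule, and all 5 measured genes are given, chosen after their values were seen. Il4 stood at 0.71 with overlapping groups, and it was well above background on only 1 Control and 1 NT-3N array. Areg, an epithelial growth factor, stood at 0.19 and Gata3, the type 2 transcription factor, at 0.19, both overlapping. Tslp, another alarmin, stood at 0.00 and overlapped too. Il25, an alarmin of epithelial tuft cells, stood at -0.43 (limma adjusted p = 0.70), with 4.44 and 4.69 in Control and 4.23, 4.41 and 3.77 in NT-3N. Its groups did not overlap, NT-3N being lower, and it was well above background on both Control and 2 of 3 NT-3N arrays. 6 markers of regulatory T cells and group 2 innate lymphoid cells had means of 6.92 and 7.06 in Control and between 6.92 and 7.14 in NT-3N. Of the other ligands and the binding protein, 2 of 6 were measured, and Il18bp, which captures IL-18 and was likewise chosen after its values were seen, stood at -0.36 with overlapping groups.

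The genes whose profile lay nearest to Il33 were found by the root mean square difference of the log2 values over the 5 arrays, each gene centred on its Control mean, among 16736 genes that were well above background on all 5 arrays. Socs3, which encodes a feedback inhibitor of cytokine signalling through STAT factors, was the nearest, with a root mean square difference of 0.17. It gave 10.63 and 10.11 in Control and 12.88, 13.21 and 13.14 in NT-3N. Next came Gm4827 (0.34), Gem, which encodes a small GTP-binding protein (0.38), Serpina3m, a serine protease inhibitor (0.40), and Osmr, which encodes a receptor chain for oncostatin M (0.41). Their log2 differences were 2.71 for Socs3, 2.54 for Gm4827, 2.14 for Gem, 2.64 for Serpina3m and 2.09 for Osmr. These genes were picked for their likeness to Il33 on these arrays, so no test applies.

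**Figure D5:**
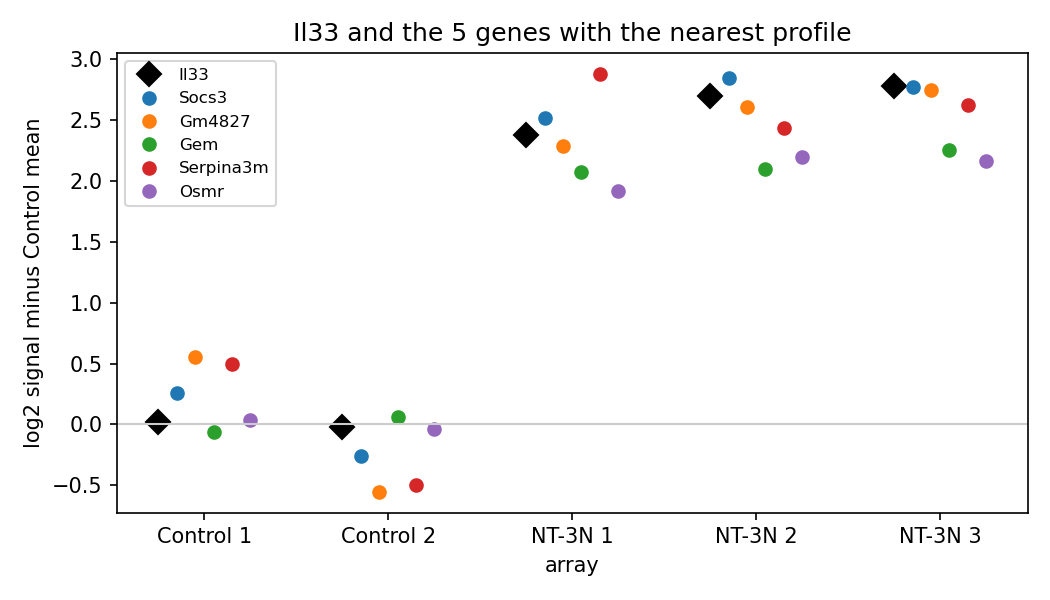
Log2 signal minus the Control mean on each array for Il33 (black diamonds) and the 5 genes nearest to it (dots). All 6 genes lie higher in each NT-3N mouse than in either Control mouse, with Gm4827 and Serpina3m the most spread in Control.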

How the data were processed

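Whole-colon RNA was measured on 5 Agilent arrays (2 Control, 3 NT-3N). The authors extracted spots with Feature Extraction 11.0.1.1, and the deposited scanner files hold an intensity per spot, background-subtracted but not scaled between arrays. The authors also deposited log2 values, quantile normalized, which were used as an alternative. From the processed intensity, control and outlier spots were left out (69 to 184 of 59305 per array), log2 was taken, spots of a probe were averaged and arrays were quantile normalized. No spot was saturated, and the share of probes well above background lay between 70.6% and 73.0%. Slide and scan time were the same for all arrays.

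A probe was kept if well above background on at least 2 arrays, with a value on both Control and at least 2 NT-3N arrays. The brightest probe stood for a gene. Accessions matched to RefSeq (GRCm38.p6) named 32994 of 56605 probes, and 17945 of 32917 features had a symbol. The array design is on another build, so only RefSeq's promoter windows carry coordinates. A gene below background on a whole group has a bound. It sets the brighter group's mean against the dimmer one's own signal or, where larger, the lowest signal called well above background there. Some signals above that lowest one were not called well above background, so a bound is approximate and no firm limit.

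Groups were compared with limma 3.58.1 (R 4.3.3), with intensity trend, two-sided, Benjamini-Hochberg adjusted over all features. The study's methods name a local-pooled-error test, which was run as an alternative. Both tests pool the spread over features, in different ways, and both were adjusted by Benjamini-Hochberg. The members and lists were chosen with earlier results of these data known. Named were all members, and of each pathway list the genes past the adjusted threshold, or else the 2 higher and 2 lower genes with the largest difference among those above background on all 5 arrays without overlap. Alternatives covered scaling, background correction, filters, the variance model, array weights, the replicate block, probe choice, the test and left-out arrays.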

Additional observations from a re-analysis of the deposited data

How the results depend on the processing

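Il33 stayed between 2.20 and 2.73 on the log2 scale over 14 alternatives, the lowest with normexp background correction, where Il1r2 was at 0.64. Il18, Il1b, Il1rn and Il1r1 stayed above 0 in all 14. Il1rl1 lay above 0 in 6 and below in 8. Of the 9 genes, 1 (Il1rl1) lay below 0, 0 did with array quality weights or the mean of probes, and 0 to 2 did when 1 array was left out.

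The number of features called depended on the setting. Against 41 higher and 6 lower, it was 2 and 0 without a filter on dim probes, 2 and 0 without an intensity trend, 124 and 46 with array quality weights, and 192 and 156 with the local-pooled-error test. The lower count was 11 with the deposited log2 values, 13 with the filter on all arrays and 15 with robust variance. When 1 array was left out, limma called 0 to 112 higher and 0 to 16 lower. The higher count was 112 without Control 2, 68 without NT-3N 1, 1 without NT-3N 2 and 0 without NT-3N 3. Without NT-3N 3, 2373 features still had an unadjusted p under 0.05. The lower count was 0 without Control 1, NT-3N 2 or NT-3N 3 and 16 without NT-3N 1. The cause was not tested.

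Pathway genes past the adjusted p numbered 0, against 1 with array quality weights (Il6), 2 with the local-pooled-error test (Il6, Cxcl1) and 0 to 1 when 1 array was left out. At an unadjusted p, 7 were higher, 4 with the local-pooled-error test and 4 to 6 with 1 array left out. Lower were 0, against 1 with the 75th percentile scaling and 1 with normexp (Ptgs2), 1 with array quality weights (Nlrp6), and 0 to 3 with 1 array left out. The 7 higher genes include Il6, which passed the background filter through NT-3N alone.

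With the replicate number as a block, NT-3N 3 has no partner, and limma called 0 higher and 0 lower, with 2488 at an unadjusted p under 0.05 against 3167. Deviations of same-numbered arrays correlated at 0.13 and 0.036, and the labels name no shared litter or day, so the arrays share only a number. Signals near background, such as Il1a, the second Il1r2 probe and Il6, cannot give a fold.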
